A study of Homo sapiens with 48 samples.

Results

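HEK293T cells that had received only the vehicle DMSO were compared at 12 h and at 3 h, with 4 libraries at each time and all 14685 genes of the count tables. These 8 libraries were picked by their labels from the 48 of the series. HEK293T is a human embryonic kidney line that carries the SV40 large T antigen. All cells of the series, the DMSO cells included, had been transiently transfected with a plasmid for NCBP1, the larger of the proteins that bind the cap of nuclear RNA, fused to Halo. The series asks what happens to RNA after NCBP1 is modified by HNE, a lipid-derived electrophile, through T-REX, in which a photocaged HNE probe bound to Halo is released by light. Beside T-REX there are 3 control arms, called light alone, probe alone and DMSO after the study, and RNA was taken 3, 6 and 12 h after the reaction or control treatment from 4 independent biological replicates of each. DMSO cells were given neither probe nor light, so that what separates the groups compared here is 9 h more in culture, together with any difference in preparation between the time points. Time and preparation batch cannot be told apart. No untransfected cells or cells taken at the moment of treatment were analysed here.

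Cells kept in a dish grow denser, use up medium and move away from the handling they have just been through, and several gene programmes are known to follow such conditions. The tumour suppressor p53 drives CDKN1A and MDM2, and its activity is restrained in this line by the large T antigen. Ribosome biogenesis genes follow growth signals such as MYC and mTORC1. Heat shock factors, the unfolded protein response of the endoplasmic reticulum (ER) and the integrated stress response (ISR) adjust chaperones and amino acid supply. The HIF factors raise hypoxia genes, and Notch and BMP signals pass between neighbouring cells.

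Total counts lay between 28328178 and 29747193 at 3 h and between 26871718 and 30593868 at 12 h, and levels are given as CPM, the counts of a gene as a share of the library's total, scaled by TMM factors that lay between 0.976 and 1.03 in these libraries. Replicates were more spread at 12 h, where the median SD of log2 CPM over 10246 genes was 0.14, against 0.0855 at 3 h. Replicate 3 at 12 h stood farthest from the rest of its group, with a median difference of 0.184 on the log2 scale against 0.0723 to 0.133 for the other libraries at 12 h. Mitochondrial transcripts took 8.33% to 8.53% of counts at 3 h and 8.36% to 9.8% at 12 h. Of the 10 HEK293T markers listed, 9 were measured, with summed levels of 722 to 735 CPM at 3 h and 898 to 1013 CPM at 12 h. Of 12 markers of blood, endothelial, liver and stromal cells, 1 was measured, the collagen gene COL1A1, at 2.71 to 4.03 CPM at 3 h and 3.33 to 5.16 CPM at 12 h.

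NCBP1 (ENSG00000136937), whose counts include the coding sequence on the plasmid, was lower at 12 h. It stood at 52484, 46546, 61416 and 54943 CPM at 3 h and 30797, 35789, 31383 and 40599 CPM at 12 h (log2 fold change -0.64, SE 0.097, adjusted p = 0.000361). The 4 libraries at 12 h all lay below the 4 at 3 h, and the share of all counts taken by NCBP1 went from 4.56% to 6.1% at 3 h to 3.09% to 4.18% at 12 h. The 6 h libraries averaged 53742 CPM. NCBP2, the cap-binding small subunit, was measured at 33.7, 34.4, 31.5 and 33.6 CPM at 3 h and 30.1, 27.6, 30.7 and 26.9 CPM at 12 h and was not called (log2 fold change -0.21, SE 0.0783, adjusted p = 0.0558). SRRT, which encodes the cap-binding partner ARS2, fell (log2 fold change -0.45, SE 0.103, adjusted p = 0.00514). Of the 6 genes listed for the complex, 2 were called lower and none higher, and 4 were lower without replicate 1 or 3 at 12 h.

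A gene was called where its adjusted p, from the quasi-likelihood test of edgeR after Benjamini-Hochberg correction over the 14685 genes, did not exceed 0.05, and every adjusted p below is from that test unless another fit is named. Between 3 and 12 h, 4436 genes (30.2% of those tested) were called, 2420 higher (16.5%) and 2016 lower (13.7%) at 12 h. Most of these changes were small. The median log2 fold change was 0.51 among the genes called higher and -0.34 among those called lower. With an absolute log2 fold change of at least 0.5 as well, 1624 genes were called, 1254 of them higher. At 1 or more, 194 genes were higher and 24 lower. The values of the 4 libraries at 3 h and the 4 at 12 h did not overlap in 3846 of the genes called, and in 4512 of all genes (30.7%).

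Most p53 targets listed, and several genes for D cyclins, their kinases and CDK inhibitors, were called higher at 12 h. Most genes of mitosis listed were called lower. Of 22 p53 targets measured, 16 were called higher and none lower (median log2 fold change 0.50, against 0.01 over all genes), and all 22 had a positive log2 fold change. Leaving out any 1 library gave 16 to 18. CDKN1A (ENSG00000124762), the p21 inhibitor of cyclin-dependent kinases, stood at 119, 107, 166 and 114 CPM at 3 h and 303, 232, 207 and 282 CPM at 12 h (log2 fold change 1.02, SE 0.142, adjusted p = 0.00029). Every library at 12 h lay above every library at 3 h, and replicate 3 was the highest library at 3 h and the lowest at 12 h. MDM2 (ENSG00000135679), the ubiquitin ligase that removes p53, was at 568, 574, 682 and 626 CPM at 3 h and 1067, 1062, 1168 and 1235 CPM at 12 h (log2 fold change 0.89, SE 0.0733, adjusted p = 5.57e-06). FAS (ENSG00000026103), a death receptor, was at 29.9, 30.1, 37.4 and 32 CPM at 3 h and 63.4, 70.5, 68.4 and 77.5 CPM at 12 h (log2 fold change 1.11, SE 0.0884, adjusted p = 4.12e-06). Neither gene overlapped between the times, and their 6 h means of 1039 CPM and 58.8 CPM lay nearer to the 12 h level. SESN1, a sestrin that restrains mTORC1, rose by 0.91 on the log2 scale. PINCR, a noncoding RNA induced by p53, was among the 12 largest rises, with 1.71, 2.4, 2.44 and 2.12 CPM at 3 h and 5.88, 6.01, 5.63 and 7.97 CPM at 12 h (log2 fold change 1.55, SE 0.178, adjusted p = 4.75e-05). Of the apoptosis genes on the list, FAS and another death receptor, TNFRSF10B (0.50), were called higher, and BBC3 (0.44) and BAX (0.15) were not called.

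Among 14 genes for D cyclins, their kinases, CDK inhibitors and retinoblastoma proteins, 8 were called higher and none lower (median log2 fold change 0.34). CDKN1C (ENSG00000129757), which encodes the inhibitor p57, stood at 2, 1.96, 1.9 and 1.91 CPM at 3 h and 4.74, 4.58, 5.22 and 4.32 CPM at 12 h (log2 fold change 1.28, SE 0.161, adjusted p = 9.2e-05). Its levels were low, and the 4 values at 3 h lay within a narrow band under all values at 12 h. RB1, the retinoblastoma protein that holds back S phase, rose by 0.59, and CDK6, a kinase that inactivates it, rose by 0.71. CCND1, which encodes cyclin D1, rose by 0.46.

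Of 40 genes of mitosis and cytokinesis, 27 were called lower and 1 higher (median log2 fold change -0.27, 38 of 40 below 0). AURKB (ENSG00000178999), the kinase of the chromosomal passenger complex, stood at 59.1, 57.5, 59.6 and 59.5 CPM at 3 h and 46.2, 36.1, 35.5 and 46.4 CPM at 12 h (log2 fold change -0.52, SE 0.0925, adjusted p = 0.00097). CDC20, the activator of the anaphase-promoting complex, was at 59.1, 69.8, 64.7 and 61.7 CPM at 3 h and 51.3, 43.3, 37.9 and 50.0 CPM at 12 h (log2 fold change -0.48, SE 0.0943, adjusted p = 0.00182), and KIF23, a kinesin of the midbody, was at 146, 154, 144 and 146 CPM at 3 h and 109, 103, 105 and 101 CPM at 12 h (log2 fold change -0.50, SE 0.0562, adjusted p = 4.41e-05). The groups did not overlap in these genes, whose levels at 12 h were 0.696, 0.715 and 0.71 times those at 3 h. PLK1, CCNB1 and MKI67 changed by -0.46, -0.44 and -0.45. PRC1 had the largest fall of the called members (log2 fold change -0.61, SE 0.21, adjusted p = 0.0421), but at 1.21 to 2.57 CPM its call was lost in 9 of 17 alternative fits. HMMR, the hyaluronan-mediated motility receptor, was the 1 member called higher (log2 fold change 0.43, SE 0.0754, adjusted p = 0.000923), and it is singled out here after its values were seen. The 35 genes of DNA replication and the G1/S step went both ways, with 4 called higher and 8 lower (median -0.05), among them RRM2 (-0.46) and CDC6 (-0.44) lower and MCM6 (0.24) and PCNA (0.22) higher. Of 36 replication-dependent histone genes, 1 was called higher and 3 lower, and 10 were called lower without replicate 1 at 12 h. The 1 higher was lost without replicate 2, 3 or 4 at 3 h or replicate 1, 2 or 4 at 12 h.

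Promoters of mitotic genes often carry a cell cycle homology region next to CCAAT boxes. In RefSeq promoters of GRCh38.p14 (250 bases before to 50 after the start of the gene), the letters TTTGAA stood on either strand in 22 of the 33 mitosis promoters that could be matched by symbol, and in 15.4% of all 27305 promoters. The letters CCAAT stood in 26 of the 33 and in 35.7% of all. Of the 22 with TTTGAA, 16 genes were called lower, and of the 11 without it, 7 were. The promoters of CDC20 (chr1:43358731-43359030 on the plus strand) and KIF23 (chr15:69414099-69414398 on the plus strand) are shown because they hold both motifs and the genes fell in all 4 libraries at 12 h. Capitals mark TTTGAA and CCAAT or their reverse complements.
CDC20: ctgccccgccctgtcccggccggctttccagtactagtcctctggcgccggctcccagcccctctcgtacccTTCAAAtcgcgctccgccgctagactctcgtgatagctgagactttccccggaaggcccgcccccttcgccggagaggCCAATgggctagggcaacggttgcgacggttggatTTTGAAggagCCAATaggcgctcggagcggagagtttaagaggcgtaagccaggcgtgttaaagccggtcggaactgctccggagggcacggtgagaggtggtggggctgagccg
KIF23: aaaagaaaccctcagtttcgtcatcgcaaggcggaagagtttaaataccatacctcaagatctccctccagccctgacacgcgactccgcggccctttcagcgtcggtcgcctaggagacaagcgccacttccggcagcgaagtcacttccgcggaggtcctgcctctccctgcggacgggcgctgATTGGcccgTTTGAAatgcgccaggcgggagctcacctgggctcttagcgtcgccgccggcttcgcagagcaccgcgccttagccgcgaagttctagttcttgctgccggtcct

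**Figure D1:**
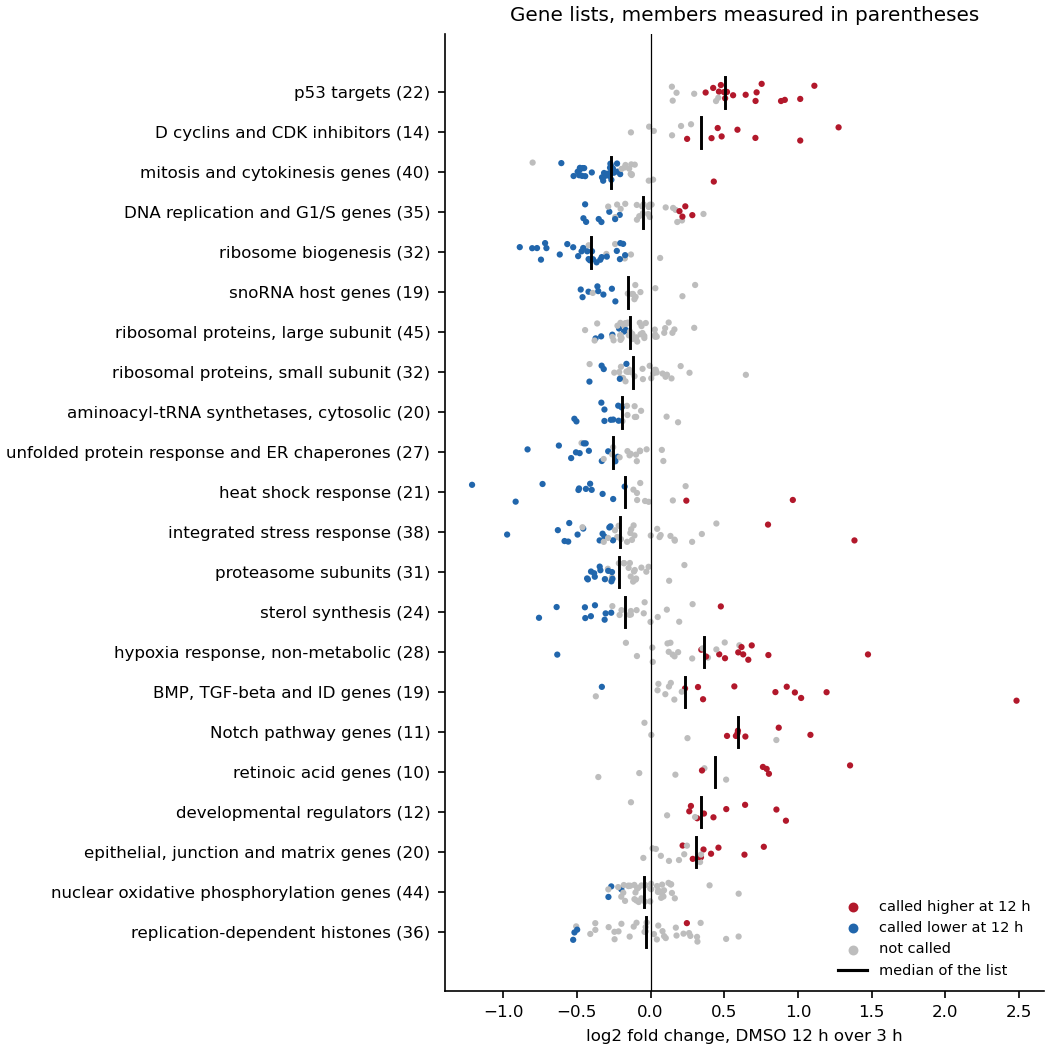
Log2 fold change of DMSO cells at 12 h over 3 h (x axis) for each measured member of 22 gene lists (rows, number of members in parentheses), red for members called higher, blue for members called lower, grey for the rest and a black bar for the median of the list. Points of the p53, Notch and hypoxia lists lie mostly to the right of 0 and those of mitosis, ribosome biogenesis and the ER chaperones mostly to the left.

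Ribosome biogenesis was the list with the largest share of called members, with 26 of 32 lower and none higher (median log2 fold change -0.40, 20 to 27 lower without any 1 library). These genes process ribosomal RNA and assemble the subunits in the nucleolus. NIP7 (ENSG00000132603), which acts in the maturation of the large subunit, stood at 35.6, 39.5, 34.6 and 35.7 CPM at 3 h and 20.6, 18.9, 18.4 and 20.7 CPM at 12 h (log2 fold change -0.89, SE 0.0826, adjusted p = 1.16e-05). DKC1 (ENSG00000130826), the pseudouridine synthase dyskerin, was at 190.0, 215, 185 and 192 CPM at 3 h and 125, 118, 111 and 114 CPM at 12 h (log2 fold change -0.74, SE 0.0655, adjusted p = 7.82e-06). NOP16, a nucleolar protein, was at 20.6, 24.3, 24.4 and 20.9 CPM at 3 h and 15.5, 12.7, 13.2 and 11.6 CPM at 12 h (log2 fold change -0.77, SE 0.111, adjusted p = 0.000253). None of these 3 genes had a value at 12 h as high as the lowest at 3 h, and NIP7 was 0.54 times its 3 h level. The subunits of RNA polymerase I on the list, POLR1A, POLR1B and POLR1C, changed by -0.39, -0.53 and -0.49, and nucleolin (NCL) and nucleophosmin (NPM1) by -0.43 and -0.23. BOP1 was the 1 member above 0 (0.06, not called).

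The E-box CACGTG, a site of MYC and related factors, stood in 10 of 27 matched promoters of these genes. It stood in 7.43% of all promoters and in 10% of the 10452 of genes tested here. Of the 10 with it 8 were called lower, and of the 17 without it 16 were. MYC itself was called higher at 12 h (log2 fold change 0.23). MRTO4, a factor of ribosome assembly, was at 14.2, 17.1, 18.6 and 16.4 CPM at 3 h and 12.1, 11.3, 5.4 and 9.21 CPM at 12 h (log2 fold change -0.80, SE 0.192, adjusted p = 0.00673), and replicate 3 at 12 h was the lowest library. Its promoter (chr1:19251555-19251854 on the plus strand) is shown as an example with the E-box, in capitals, close to the start of the gene.
MRTO4: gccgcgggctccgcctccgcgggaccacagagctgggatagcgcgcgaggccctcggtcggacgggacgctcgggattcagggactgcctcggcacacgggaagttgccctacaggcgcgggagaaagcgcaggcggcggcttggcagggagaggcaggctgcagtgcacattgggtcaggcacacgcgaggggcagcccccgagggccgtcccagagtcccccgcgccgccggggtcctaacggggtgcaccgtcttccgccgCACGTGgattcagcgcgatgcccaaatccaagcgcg

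Other parts of the translation machinery were also measured. Of 19 snoRNA host genes, 8 were called lower and none higher (median -0.15), with GAS5 at 117, 124, 106 and 123 CPM at 3 h and 89, 94.3, 96.6 and 86.7 CPM at 12 h (log2 fold change -0.36, SE 0.0669, adjusted p = 0.00132). Ribosomal protein genes mostly were not called, and the shares called lower lay near the 13.7% of all genes. Of 45 for the large subunit 6 were lower (median -0.14), and of 32 for the small subunit 5 were lower (median -0.12), with none higher. These counts rested on single libraries. For the large subunit there were 14 without replicate 1 and 10 without replicate 3 at 12 h, 2 without replicate 1, 2 or 4 at 3 h and 3 without replicate 4 at 12 h, and for the small subunit there were 10 without replicate 1 at 12 h, 2 without replicate 4 at 3 h and 1 without replicate 1 or 2 at 3 h or replicate 2 or 4 at 12 h. Reads of ribosomal proteins can be split with their many pseudogenes, and how the counting treated them is not given in the sources used here. RPS6KB1 (ENSG00000108443), which encodes the mTORC1-dependent kinase S6K1, was at 179.8, 185, 163 and 184 CPM at 3 h and 109.9, 124, 128 and 116 CPM at 12 h (log2 fold change -0.58, SE 0.0659, adjusted p = 4.45e-05), so that it was lower in each library at 12 h than in any at 3 h.

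Cytosolic aminoacyl-tRNA synthetases, which charge tRNAs, were lower in 11 of 20 cases and higher in none (median -0.19). The count was 7 without replicate 1 at 3 h or without replicate 2 at 12 h. GARS1 stood at 274, 254, 225 and 260.2 CPM at 3 h and 180.3, 185, 166 and 184 CPM at 12 h (log2 fold change -0.50, SE 0.0666, adjusted p = 0.000134), and YARS1 at 192, 178, 187 and 192 CPM at 3 h and 139, 129, 101 and 155 CPM at 12 h (log2 fold change -0.52, SE 0.0994, adjusted p = 0.00171). The C/EBP-ATF response element TGATGNAAN, which ATF4 binds, stood in 6 of 16 matched synthetase promoters and in 3.67% of all promoters, and 5 of the 6 genes were called lower, as were 5 of the 10 without it. The promoter of CARS1 (chr11:3057374-3057673 on the minus strand, log2 fold change -0.33) is shown with the element in capitals, on the reverse strand.
CARS1: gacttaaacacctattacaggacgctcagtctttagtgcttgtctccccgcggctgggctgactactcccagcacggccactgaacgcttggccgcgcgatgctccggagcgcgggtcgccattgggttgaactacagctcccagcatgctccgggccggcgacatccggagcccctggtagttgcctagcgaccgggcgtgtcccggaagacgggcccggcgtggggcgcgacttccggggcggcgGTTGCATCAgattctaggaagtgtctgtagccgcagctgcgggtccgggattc

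Many chaperones of the ER and of the cytosol were called lower at 12 h. Of 27 genes of the unfolded protein response, 12 were called lower and none higher (median -0.25), and 9 to 14 were lower without any 1 library. HSPA5 (ENSG00000044574), the ER chaperone BiP, stood at 257, 278, 239 and 256 CPM at 3 h and 156, 138, 134 and 149 CPM at 12 h (log2 fold change -0.84, SE 0.0663, adjusted p = 4.12e-06). XBP1 (ENSG00000100219), a transcription factor of this response, was at 88.9, 80.6, 77.8 and 84.9 CPM at 3 h and 51.4, 53.2, 54.5 and 56.8 CPM at 12 h (log2 fold change -0.62, SE 0.0657, adjusted p = 2.71e-05). CALR, the lectin chaperone calreticulin, was at 277, 309, 291 and 316 CPM at 3 h and 239.9, 211, 178 and 212 CPM at 12 h (log2 fold change -0.51, SE 0.081, adjusted p = 0.000497). All 3 genes had separate groups, and HSPA5 at 6 h (173 CPM on average) lay nearer to the 12 h level. CREB3L2, a membrane-bound transcription factor, fell by 0.54 on the log2 scale. The kinase EIF2AK3 (PERK) changed by -0.24, while ATF6 (-0.09), ERN1 (0.09) and HERPUD1 (-0.10) were not called.

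The ER stress element, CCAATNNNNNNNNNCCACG, was found in 6 of 23 matched promoters of this list and in 0.0806% of all 27305. The 6 genes were HSPA5, CALR, XBP1, HSP90B1, CANX and CRELD2. The first 4 were called lower, and CANX (-0.13) and CRELD2 (-0.47) were not. Of the 17 without it, 6 were called lower. The promoters of HSPA5 (chr9:125241294-125241593 on the minus strand) and CALR (chr19:12938359-12938658 on the plus strand) are shown with the element in capitals. In CALR it is on the reverse strand and farther from the start of the gene.
HSPA5: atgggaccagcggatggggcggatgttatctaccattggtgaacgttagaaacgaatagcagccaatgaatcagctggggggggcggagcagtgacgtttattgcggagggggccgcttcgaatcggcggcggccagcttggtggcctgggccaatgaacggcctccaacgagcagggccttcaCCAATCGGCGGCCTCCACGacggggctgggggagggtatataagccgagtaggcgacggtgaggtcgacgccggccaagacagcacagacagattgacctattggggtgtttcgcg
CALR: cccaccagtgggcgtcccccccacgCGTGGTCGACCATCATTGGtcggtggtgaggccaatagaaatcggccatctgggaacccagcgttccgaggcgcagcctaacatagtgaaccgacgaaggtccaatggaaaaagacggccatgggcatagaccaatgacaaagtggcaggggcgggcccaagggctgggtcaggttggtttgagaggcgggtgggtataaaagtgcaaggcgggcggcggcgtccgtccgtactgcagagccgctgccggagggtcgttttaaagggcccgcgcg

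In the heat shock list, 11 of 21 genes were called lower and 2 higher (median -0.18). HSPA1B (ENSG00000204388), an inducible HSP70, stood at 111, 93.5, 137 and 88.1 CPM at 3 h and 67.2, 41.2, 45.4 and 32 CPM at 12 h (log2 fold change -1.21, SE 0.219, adjusted p = 0.00288). Its level was not highest at 3 h, since the 6 h libraries stood at 158, 134, 189 and 116 CPM. HSPA1B has a near-identical neighbour, HSPA1A, so that its counts are uncertain where reads fit both. DNAJB1 (ENSG00000132002), an HSP40 that works with HSP70, was at 181, 185, 193 and 191 CPM at 3 h and 112, 95.7, 85 and 104 CPM at 12 h (log2 fold change -0.92, SE 0.0776, adjusted p = 6.33e-06). BAG3, a partner of HSP70 in autophagy, fell (log2 fold change -0.73, SE 0.17, adjusted p = 0.00568). HSPA8, the constitutive HSC70, and HSPH1 changed by -0.41 and -0.40, whereas HSP90AA1 (0.15) and HSF1 (-0.01) were not called. HSPB1, the small heat shock protein HSP27, rose from 11.5, 7.28, 13.4 and 7.49 CPM at 3 h to 24.1, 17.2, 20.6 and 15.7 CPM at 12 h (log2 fold change 0.97, SE 0.193, adjusted p = 0.00227), and HSPA4L also rose (0.24). The heat shock element GAANNTTCNNGAA stood in 4 of 19 matched promoters, of DNAJA1, CHORDC1, HSPA8 and DNAJB6, and all 4 genes were called lower, as were 7 of the 15 without it. It stood in 0.487% of all promoters.

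Of 38 ISR genes, 13 were called lower and 2 higher (median -0.21). ATF5 (ENSG00000169136), a transcription factor of the response, stood at 16.3, 16.5, 15.2 and 14.9 CPM at 3 h and 8.23, 8.85, 9.52 and 5.49 CPM at 12 h (log2 fold change -0.97, SE 0.149, adjusted p = 0.000364). SLC7A11, the cystine transporter, was at 133, 97.3, 97.7 and 116 CPM at 3 h and 62.6, 64.7, 78.2 and 81.7 CPM at 12 h (log2 fold change -0.63, SE 0.11, adjusted p = 0.000911). ATF4 itself, PPP1R15A (GADD34) and the serine synthesis enzyme PSAT1 changed by -0.27, -0.58 and -0.35, while ASNS (0.07), DDIT3 (-0.12) and TRIB3 (-0.16) were not called. The members called higher were GDF15 and VLDLR, and 4 were called higher without replicate 3 at 12 h. GDF15, a secreted stress cytokine that p53 also induces, was at 2.39, 2.75, 6.23 and 2.32 CPM at 3 h and 11.1, 7.65, 7.33 and 9.81 CPM at 12 h (log2 fold change 1.38, SE 0.28, adjusted p = 0.00257). Replicate 3 at 3 h was the highest of its group and did not reach the lowest value at 12 h. VLDLR, a lipoprotein receptor, was at 9.93, 10.5, 9.27 and 11.8 CPM at 3 h and 16.7, 18.6, 18.6 and 18.3 CPM at 12 h (log2 fold change 0.80, SE 0.105, adjusted p = 0.00013). The C/EBP-ATF element stood in 6 of 32 matched ISR promoters, 3 of them of genes called lower. Of the 26 genes without it, 8 were called lower and 2 higher. Of 20 amino acid transporters, several of them on the ISR list, 5 were lower and 1 higher, where 30.2% of all genes were called. The 1 higher was lost without any 1 library at 3 h or replicate 2 at 12 h. Of 31 proteasome subunits, 12 were lower and none higher (median -0.22), with PSMD11 at 205, 214, 201 and 206 CPM at 3 h and 154, 156, 157 and 158 CPM at 12 h (log2 fold change -0.40, SE 0.0522, adjusted p = 0.000111).

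**Figure D2:**
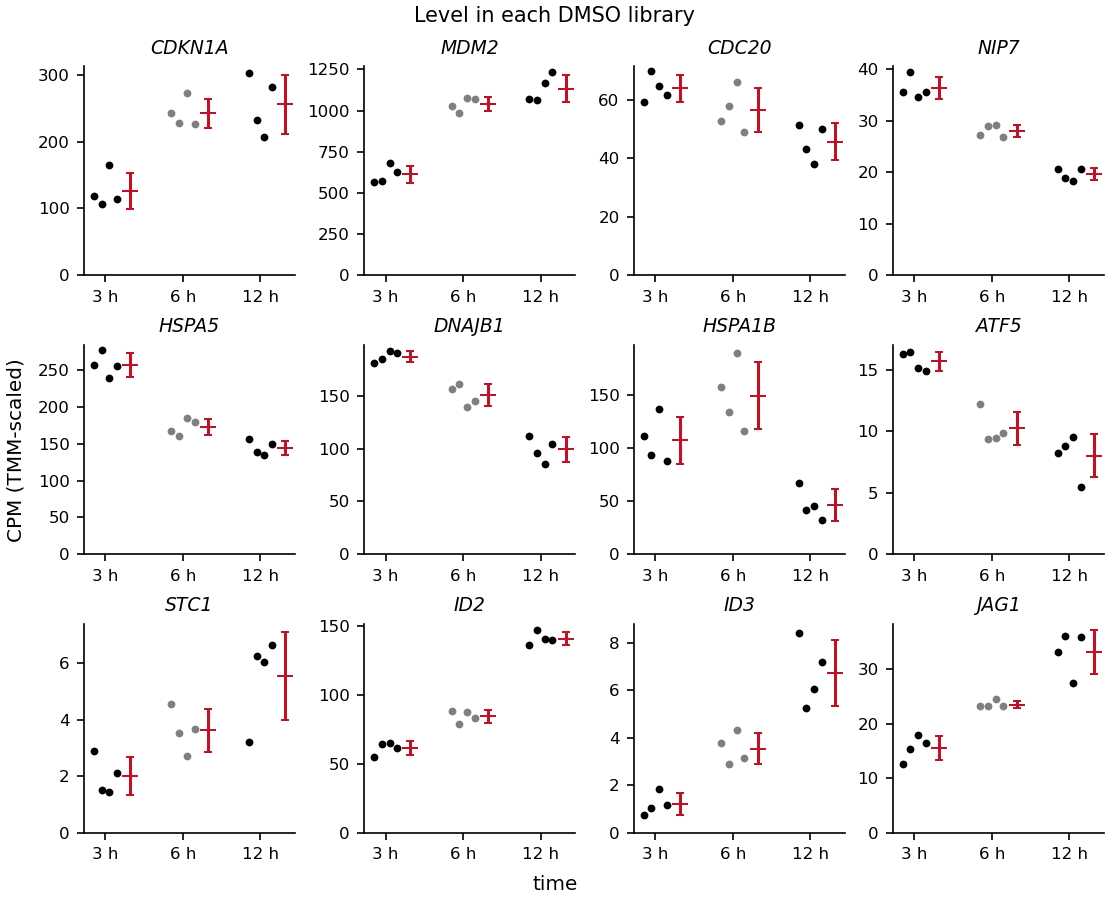
TMM-scaled CPM (y axis, from 0) of 12 genes in the 4 DMSO libraries at 3, 6 and 12 h (x axis), with black points at 3 and 12 h, grey points at 6 h and the mean ± SD (n = 4) in red beside them. In each of the 12 genes the points at 3 h and 12 h do not overlap, and HSPA1B is the gene whose 6 h values average above both other times.

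Of 28 non-metabolic genes of the hypoxia response, 11 were called higher at 12 h, against 16.5% of all genes. Of the rest, 1 was called lower and 16 were not called (median of the list 0.36, 11 to 15 higher without any 1 library). Genes of glycolysis were listed apart. STC1 (ENSG00000159167), the secreted glycoprotein stanniocalcin, stood at 2.89, 1.51, 1.46 and 2.12 CPM at 3 h and 3.23, 6.25, 6.05 and 6.67 CPM at 12 h (log2 fold change 1.48, SE 0.261, adjusted p = 0.000966). Replicate 1 at 12 h was only just above the highest value at 3 h, and the other 3 lay well above. BHLHE40 (ENSG00000134107), a repressor that also acts in the clock, was at 58.1, 51.1, 58.5 and 55.1 CPM at 3 h and 86.9, 97.3, 91 and 113 CPM at 12 h (log2 fold change 0.80, SE 0.083, adjusted p = 2.47e-05). NDRG1 was at 62.8, 59, 65.9 and 54.3 CPM at 3 h and 92.6, 98.5, 84.4 and 114 CPM at 12 h (log2 fold change 0.69, SE 0.0908, adjusted p = 0.000132), and BNIP3, a mitophagy receptor, at 43, 37.3, 38.2 and 37.6 CPM at 3 h and 54.8, 65.8, 64.9 and 62.1 CPM at 12 h (log2 fold change 0.66, SE 0.0782, adjusted p = 5.77e-05). In these genes the 6 h means (69.8 CPM, 71.2 CPM and 41.8 CPM) lay nearer to 3 h than to 12 h. EGLN3, the prolyl hydroxylase PHD3, and EPAS1 (HIF2A) rose by 0.63 and 0.60, and VEGFA (0.16) and HIF1A (0.01) were not called. JMJD6, an oxygen-dependent hydroxylase, was the 1 member called lower (log2 fold change -0.63, SE 0.102, adjusted p = 0.000531), and was singled out after its values were seen. The letters ACGTG, the core of the hypoxia response element, stood in 13 of 22 matched promoters. They stood in 21.6% of all promoters and in 26.9% of the 10452 of genes tested here. Of the 13 genes 4 were called higher, and of the 9 others 4 were.

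The glycolysis list went both ways. Of 24 glycolysis genes, 6 were called higher and 4 lower (median -0.05, above 0 in some alternative fits). The count called lower was 2 without replicate 2 at 3 h and 6 without replicate 1 at 12 h. Called lower were PGK1 (-0.39), SLC16A1 (-0.38), ENO1 (-0.27) and GPI (-0.24). The glucose transporters were among the higher ones. SLC2A3 (ENSG00000059804), or GLUT3, stood at 5.18, 5.77, 5.11 and 4.89 CPM at 3 h and 10.9, 15.4, 11.9 and 16.7 CPM at 12 h (log2 fold change 1.39, SE 0.149, adjusted p = 3.04e-05), and SLC2A1, or GLUT1, at 35.7, 36.3, 35.1 and 36.1 CPM at 3 h and 45.8, 57.7, 43.9 and 52.2 CPM at 12 h (log2 fold change 0.48, SE 0.0863, adjusted p = 0.0011). In both, the lowest library at 12 h was above the highest at 3 h. Of 24 genes of sterol synthesis and uptake, 9 were lower and 1 higher (median -0.17). HMGCS1, an enzyme of the mevalonate pathway, was at 158, 172, 133 and 163 CPM at 3 h and 117, 116, 127 and 101 CPM at 12 h (log2 fold change -0.45, SE 0.0856, adjusted p = 0.00169). STARD4, a sterol transporter, was the member called higher (log2 fold change 0.48, SE 0.0882, adjusted p = 0.00129).

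The largest rise by the naming rule was of ID3, and the BMP list as a whole was higher in 10 of 19 genes and lower in 1 (median 0.23). ID proteins bind basic helix-loop-helix factors and keep them from DNA, and BMP signals through SMAD proteins raise them. ID3 (ENSG00000117318) stood at 0.75, 1.03, 1.83 and 1.18 CPM at 3 h and 8.43, 5.26, 6.05 and 7.21 CPM at 12 h (log2 fold change 2.48, SE 0.246, adjusted p = 1.89e-05), which is 5.59-fold. ID2 (ENSG00000115738) was at 54.8, 64.7, 65 and 61.3 CPM at 3 h and 136, 147, 141 and 139.5 CPM at 12 h (log2 fold change 1.19, SE 0.0677, adjusted p = 2.56e-07), and ID4 at 74.2, 69.9, 62.9 and 70.0 CPM at 3 h and 124, 136, 166 and 120.4 CPM at 12 h (log2 fold change 0.98, SE 0.0942, adjusted p = 1.47e-05). In all 3 the 6 h means of 3.55 CPM, 84.5 CPM and 88.7 CPM lay between those at 3 and 12 h. SMAD6, an inhibitory SMAD that BMP signals induce, was at 11.3, 13, 12.9 and 11.3 CPM at 3 h and 23.9, 23.1, 28.3 and 23.6 CPM at 12 h (log2 fold change 1.02, SE 0.103, adjusted p = 2.04e-05). Of the ligands, BMP2 and BMP4 rose by 0.92 and 0.57 and BMP7 by 0.32. Among the receptors, BMPR2 and TGFBR3 rose by 0.23 and 0.36, TGFBR1, whose call was lost without replicate 4 at 3 h, fell by 0.33, and BMPR1A (0.05) and TGFBR2 (0.21) were not called.

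Notch pathway genes were higher in 7 of 11 cases and lower in none (median 0.59). The ligand JAG1 (ENSG00000101384) stood at 12.7, 15.4, 17.9 and 16.5 CPM at 3 h and 33.1, 36.1, 27.5 and 35.9 CPM at 12 h (log2 fold change 1.09, SE 0.119, adjusted p = 3.46e-05). HES1, a repressor that Notch induces, was at 12.4, 12, 12.2 and 11.1 CPM at 3 h and 20.7, 18.8, 17.9 and 17.3 CPM at 12 h (log2 fold change 0.64, SE 0.0988, adjusted p = 0.000377), and HEYL, another such target, at 4.21, 5.56, 5.69 and 5.69 CPM at 3 h and 8.2, 8.27, 7.56 and 7.94 CPM at 12 h (log2 fold change 0.59, SE 0.137, adjusted p = 0.0053). HEY1, HEY2 and the receptor NOTCH3 rose by 0.52, 0.58 and 0.59. NOTCH1 was at 27, 18.3, 35.2 and 15.4 CPM at 3 h and 58.6, 36.6, 47.7 and 32.4 CPM at 12 h (log2 fold change 0.87, SE 0.268, adjusted p = 0.0346). Its groups overlapped, and its call was lost in 5 of 18 alternative fits. NOTCH2 (0.00), the ligand JAG2 (0.85) and the feedback gene NRARP (-0.04) were not called. The letters TGGGAA, which RBPJ binds, stood in 3 of 9 matched promoters (HES1, HEYL and HEY2) and in 24.3% of all. Those 3 genes were called higher, as were 3 of the 6 without the letters.

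Some other regulators of development were called higher. In the Wnt list, 4 of 12 genes were called higher and 1 lower, with 2 higher without replicate 1 or 4 at 3 h or without replicate 2 at 12 h. Those called higher included LEF1 (ENSG00000138795), a partner of beta-catenin, at 56, 57.9, 58 and 56.8 CPM at 3 h and 87.4, 85.9, 101 and 90.1 CPM at 12 h (log2 fold change 0.67, SE 0.0671, adjusted p = 1.98e-05), and LGR5, a receptor of R-spondins, at 3.68, 3.81, 3.08 and 2.95 CPM at 3 h and 6.72, 6.22, 9.45 and 6.19 CPM at 12 h (log2 fold change 1.08, SE 0.175, adjusted p = 0.000547). AXIN2, a feedback gene of Wnt, was not called (-0.33). Of 10 retinoic acid genes, 5 were higher and none lower. ALDH1A3 (ENSG00000184254), which makes retinoic acid, was at 2.11, 2.85, 2.74 and 2.67 CPM at 3 h and 6.82, 5.36, 6.35 and 8.03 CPM at 12 h (log2 fold change 1.35, SE 0.171, adjusted p = 9.2e-05), and the receptor RARB at 26.6, 25.6, 24 and 25.1 CPM at 3 h and 38, 43, 49.7 and 41.3 CPM at 12 h (log2 fold change 0.76, SE 0.0894, adjusted p = 5.66e-05). CYP26B1, which breaks retinoic acid down, rose by 0.80. Of 12 developmental transcription factors that the study named or that are close paralogs, 9 were higher and none lower (median 0.34). SOX4 (ENSG00000124766) was at 201, 213, 198 and 209 CPM at 3 h and 347, 383, 496 and 327 CPM at 12 h (log2 fold change 0.92, SE 0.104, adjusted p = 4.75e-05), POU3F3 at 13, 14.4, 16 and 13.9 CPM at 3 h and 27.9, 21.9, 34.4 and 19.7 CPM at 12 h (log2 fold change 0.85, SE 0.152, adjusted p = 0.00105) and DACH1 at 85, 83.5, 84.2 and 86.9 CPM at 3 h and 110.3, 124, 138 and 114 CPM at 12 h (log2 fold change 0.51, SE 0.0719, adjusted p = 0.000205). All of the genes in this paragraph that are given by library had separate groups. The study took some members of that list from these samples, so that the list is not independent of them.

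Several structural genes were also called higher. Neurofilament genes, which HEK293T cells express, were higher, with NEFL (ENSG00000277586) at 45.2, 43.3, 44.2 and 46.7 CPM at 3 h and 84.9, 93.5, 98.5 and 79.7 CPM at 12 h (log2 fold change 0.99, SE 0.0754, adjusted p = 2.96e-06), NEFM higher by 0.73 and INA by 0.52. Of the 9 HEK293T markers measured, 6 were called higher and none lower. Among 20 genes of epithelia, junctions and matrix, 10 were higher and none lower (median 0.31), with 7 to 14 higher without any 1 library. FN1, the matrix protein fibronectin, was at 93.4, 97.5, 99 and 96.4 CPM at 3 h and 152, 153, 129.6 and 167 CPM at 12 h (log2 fold change 0.64, SE 0.0724, adjusted p = 4.41e-05). In the insulin and mTORC1 list, 7 of 21 were higher and 1 lower. IGFBP5 (ENSG00000115461), a binding protein of insulin-like growth factors, was at 25.1, 28, 29.6 and 28 CPM at 3 h and 61.1, 59.2, 52 and 56.3 CPM at 12 h (log2 fold change 1.04, SE 0.0795, adjusted p = 2.96e-06), and their receptor IGF1R at 131, 127, 146 and 129.9 CPM at 3 h and 231, 224, 234 and 231 CPM at 12 h (log2 fold change 0.79, SE 0.06, adjusted p = 2.96e-06).

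By the rule for the largest changes (called, a symbol, a mean of at least 100 counts and no overlap between groups), the 12 highest included, beside ID3, STC1 and PINCR, STUM (1.82), UNC5C (1.82), GRHL3 (1.62), SLC1A2 (1.58), PAPPA-AS1 (1.56), FRMPD2 (1.52), SCN4B (1.48) and GAS6-AS1 (1.46). UNC5C (ENSG00000182168), a netrin receptor, stood at 3.36, 3.95, 3.52 and 4.06 CPM at 3 h and 12.1, 14.3, 14.7 and 11.7 CPM at 12 h (log2 fold change 1.82, SE 0.135, adjusted p = 2.64e-06). GRHL3, a grainyhead factor of epithelia, was at 2.93, 3.43, 3.96 and 2.74 CPM at 3 h and 9.71, 9.94, 6.84 and 13.6 CPM at 12 h (log2 fold change 1.62, SE 0.199, adjusted p = 8e-05), and SLC1A2, a glutamate transporter, at 1.75, 1.68, 2.3 and 2.39 CPM at 3 h and 6.05, 6.22, 6.69 and 5.46 CPM at 12 h (log2 fold change 1.58, SE 0.171, adjusted p = 3.32e-05). Their 6 h means of 8.43 CPM, 7.68 CPM and 4.59 CPM were already above every value at 3 h. PAPPA-AS1, PINCR and GAS6-AS1 are antisense or other noncoding genes.

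The 12 lowest were DNAH10 (-1.27), MT-ND6 (-1.24), HSPA1B, KCNJ14 (-1.05), TIMM23B (-0.99), ATF5, CAPN5 (-0.96), LINC01772 (-0.95), TWNK (-0.93), DNAJB1, VDAC1P8 (-0.89) and NIP7. DNAH10 (ENSG00000197653), an axonemal dynein, was at 8.71, 7.9, 8.9 and 8.36 CPM at 3 h and 3.23, 4.65, 1.97 and 4.19 CPM at 12 h (log2 fold change -1.27, SE 0.205, adjusted p = 0.00054). MT-ND6, the complex I subunit encoded on the light strand of mitochondrial DNA, was at 13.7, 9.1, 9.88 and 11.3 CPM at 3 h and 5.38, 6.56, 2.95 and 3.75 CPM at 12 h (log2 fold change -1.24, SE 0.216, adjusted p = 0.000911). Of 15 mitochondrially encoded genes listed, MT-ND4 (0.19) and MT-ND5 (0.17) were called higher and MT-ND6 was the 1 called lower. The calls of MT-ND4 and MT-ND5 were lost without any 1 library at 3 h and without replicate 1 or 2 at 12 h, and 6 genes of the list were called higher without replicate 4 at 12 h. There were 2 lower without replicate 1 or 3 at 12 h. MT-ND6 lies opposite MT-ND5 and MT-CYB, and whether strand was used in counting is not given in the sources used here. TWNK, the helicase of mitochondrial DNA, was at 24.8, 29.1, 26.2 and 30.4 CPM at 3 h and 16.8, 14, 10.3 and 16.8 CPM at 12 h (log2 fold change -0.93, SE 0.138, adjusted p = 0.000296). TIMM23B has a close paralog, TIMM23, and VDAC1P8 is a pseudogene, so that their counts may be shared with other genes.

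Splicing factors of the SR family were 3 lower (5 without replicate 3 at 12 h) and 1 higher out of 18 (median near 0). SRSF2 (ENSG00000161547) fell from 378, 374, 337 and 357 CPM at 3 h to 196, 202, 241 and 183 CPM at 12 h (log2 fold change -0.82, SE 0.0794, adjusted p = 1.56e-05), with a 6 h mean of 210.2 CPM, and SRSF6 fell by 0.53. SRSF5 was at 231, 215, 208 and 223 CPM at 3 h and 336, 345, 433 and 273 CPM at 12 h (log2 fold change 0.66, SE 0.106, adjusted p = 0.000529). Among 11 long noncoding RNAs listed, 3 were higher, 1 without replicate 2 at 12 h, and 3 lower. NEAT1 (ENSG00000245532), the scaffold of paraspeckles, was at 1013, 956, 944 and 981 CPM at 3 h and 567, 609, 686 and 748 CPM at 12 h (log2 fold change -0.58, SE 0.077, adjusted p = 0.000138), and PVT1 was higher by 0.59. Gene types were taken from GENCODE 29, which holds 14556 of the 14685 genes. Of 711 antisense genes, 140 were called higher (19.7%) and 36 lower (5.06%, median 0.17). Of 570 lincRNAs, 112 were higher (19.6%) and 40 lower (7.02%, median 0.15). Over all genes the shares were 16.5% higher and 13.7% lower. Protein-coding genes split more evenly, with 2020 higher and 1826 lower of 11874 (median near 0). In processed pseudogenes 11 were higher and 20 lower of 295 (median -0.11), and in sense-intronic genes 11 were higher and 16 lower of 221 (median -0.11). Median counts per gene were 105 for antisense genes, 115 for lincRNAs and 879 for protein-coding genes, and the part of depth in these shares was not tested. Where strand was not used in counting, reads of an antisense gene cannot be told from those of its partner.

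The remaining lists held fewer called genes or went both ways. Immediate early genes were 7 higher and 2 lower of 24, YAP and TEAD targets 6 higher and none lower of 18, and clock genes 7 higher and 4 lower of 18. Of 34 lysosome and autophagy genes, 8 were lower and none higher, a count that was 4 without replicate 1 at 3 h, and 5 without replicate 2 or 3 at 3 h or replicate 2 at 12 h. NRF2 targets were 4 lower and none higher of 23, nuclear oxidative phosphorylation genes 3 lower and none higher of 44, and genes of the aryl hydrocarbon receptor 2 lower and none higher of 6, with TIPARP at 97.9, 95.3, 89.9 and 93.5 CPM at 3 h and 56.3, 61.8, 57.1 and 53.8 CPM at 12 h (log2 fold change -0.72, SE 0.0644, adjusted p = 8.95e-06). Genes of the BCL2 family were 3 higher and 1 lower of 15, fatty acid synthesis 4 higher and none lower of 18, metal handling 3 higher and 1 lower of 11, interferon-stimulated genes 2 higher and none lower of 9 and MondoA targets 1 higher and none lower of 7. None of 9 small structured RNAs was called. Some of these counts moved by over 1.5 times without 1 library. Without replicate 2 at 3 h, clock genes were 2 lower, as they were without replicate 3 at 3 h, and oxidative phosphorylation genes 1 lower, against 5 without replicate 1 or 3 at 12 h. Fatty acid synthesis was 2 higher without replicate 4 at 3 h, and 1 gene of the aryl hydrocarbon receptor list was lower without replicate 2, 3 or 4 at 3 h or replicate 4 at 12 h. The 1 BCL2 family gene called lower was lost without replicate 2 or 4 at 3 h or replicate 2 at 12 h. Without replicate 1 at 12 h, 2 genes were lower in each of the BCL2, metal and insulin lists. In several of these lists the share called was below the 30.2% of all genes.

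The same interval was then read in the 2 other control arms, whose libraries are not shared with DMSO but were taken at the same times. With light alone, 6390 genes (43.5%) were called between 3 and 12 h, 3455 higher and 2935 lower. Probe alone gave 7090 (48.3%), 3755 higher and 3335 lower. These fits each used the spread of their own arm. At 12 h the median SD of log2 CPM was 0.14 in DMSO, 0.0733 for light alone and 0.0855 for probe alone. When all 48 libraries were fitted together, the counts lay closer, at 5694 for DMSO, 5783 for light alone and 6218 for probe alone. Shares of calls given next are from the separate fits, and the part of spread in them was not tested. Of the genes called in DMSO, 3783 were called in the same direction with light alone (85.3% of the DMSO calls and 59.2% of the light-alone calls), and 1 in the opposite direction. With probe alone, 3755 were called in the same direction (84.6% of the DMSO calls and 53% of the probe-alone calls) and 3 in the opposite one. In all 3 arms 3366 genes were called in the same direction, which is 75.9% of the DMSO calls. Across the 14685 genes, which are not independent replicates, the log2 fold changes had a Pearson r of 0.791 with those of light alone and 0.812 with those of probe alone. ID3 changed by 1.96 with light alone and 2.15 with probe alone, CDKN1A by 0.68 and 1.19, NIP7 by -0.89 and -0.94, HSPA5 by -0.85 and -0.92 and STC1 by 2.42 and 1.59. The list medians for p53 targets were 0.39 with light alone and 0.75 with probe alone, for ribosome biogenesis -0.32 and -0.51, for mitosis -0.16 and -0.31, for hypoxia 0.56 and 0.37 and for Notch 0.19 and 0.55.

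**Figure D3:**
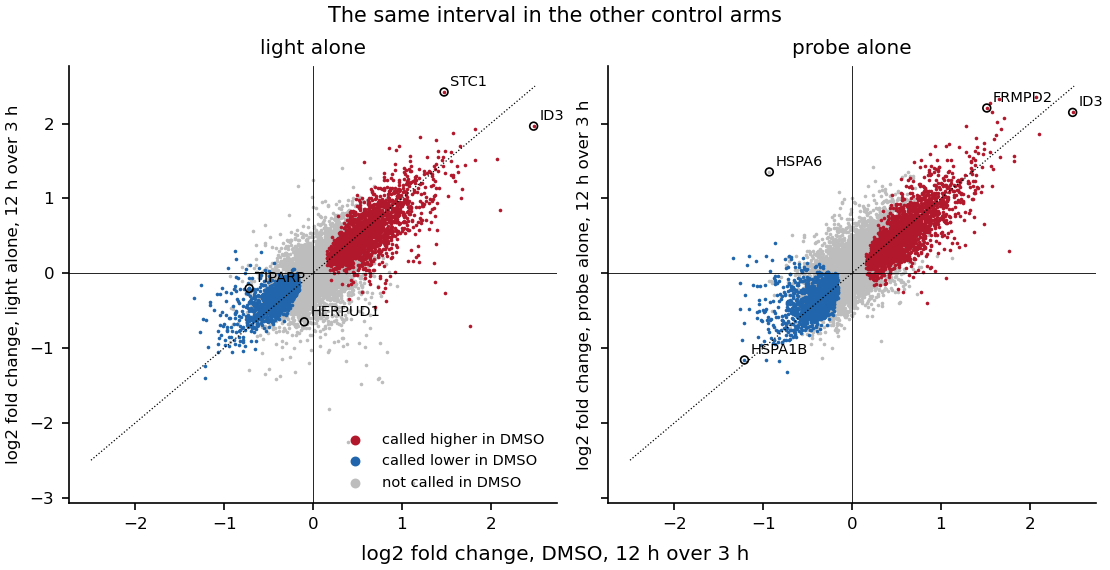
Log2 fold change at 12 h over 3 h with light alone (left, y axis) and probe alone (right, y axis) against that in DMSO (x axis), 1 point per gene, red and blue for genes called higher and lower in DMSO and a dotted line where both are equal. Most of the coloured points share their sign with the other arm, and HERPUD1 on the left and HSPA6 on the right are the genes called by the test of the difference.

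Whether the change from 3 to 12 h differed between arms was tested as an interaction of arm and time, in a fit that took in the 48 libraries. Against light alone 1 gene was called (0.00681% of those tested, with 627 genes at p up to 0.05 before adjustment), and against probe alone 1 (0.00681%, with 1308 genes at p up to 0.05 before adjustment). Both genes are named after their values were seen. HERPUD1 (ENSG00000051108), an ER stress gene of protein degradation, stood in DMSO at 32.9, 32.3, 31.6 and 33.1 CPM at 3 h and 31.2, 27.7, 32.4 and 30.2 CPM at 12 h. With light alone it stood at 37.2, 46.5, 38.7 and 40.8 CPM at 3 h and 27.2, 25, 22.9 and 27.7 CPM at 12 h. The fall with light alone exceeded the change in DMSO by 0.57 on the log2 scale (SE 0.103, adjusted p = 0.0196). HSPA6 (ENSG00000173110), an inducible HSP70, stood in DMSO at 2.75, 1.89, 4.26 and 1.98 CPM at 3 h and 2.42, 1.2, 0.491 and 1.56 CPM at 12 h. With probe alone it stood at 2.05, 2.11, 1.47 and 2.99 CPM at 3 h and 3.65, 5.1, 5.35 and 7.69 CPM at 12 h. Its change in DMSO minus that with probe alone was -2.27 (SE 0.419, adjusted p = 0.0316). With probe alone the 4 values at 12 h lay above those at 3 h, and in DMSO the groups overlapped. The median SE of these differences was 0.147 on the log2 scale, and both calls were lost when only the 16 libraries of the 2 arms were fitted. By DESeq2 HERPUD1 was called and HSPA6 was given no adjusted p, and the 8 genes called against probe alone were others.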

How the data were processed

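RNA of the DMSO cells was taken at 3 and 12 h from 4 replicates each, and the authors prepared stranded, rRNA-depleted libraries that were sequenced as paired-end reads and demultiplexed with bcl2fastq. The authors deposited 1 table per time point of raw counts per gene, with no normalization, and 1 of log2 CPM. The Reporting Summary lists cutadapt, TopHat and Cufflinks, and the aligner, genome build and counting rules for these tables are not given in the sources used here. The 2 count tables were joined by Ensembl identifier (14685 genes, 13471 with a symbol). The lowest count in these libraries was 3, and edgeR's filter on low counts removed no gene.

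Counts were fitted in R 4.3.3 with edgeR 4.0.16 (TMM, filterByExpr, robust quasi-likelihood test) on the 8 DMSO libraries, with Benjamini-Hochberg adjustment over all genes. The coefficient of biological variation was 11.5%. A test on data drawn with the means and spread of this comparison changed 67, 67 and 66 of 14685 genes by 0.3, 0.5 and 1 on the log2 scale. It recovered 19.4%, 68.7% and 100% of them, so that small changes were often missed in it. Far fewer genes were changed in it than the 4436 called here, which makes the adjustment of p stricter. These shares therefore do not give the share of changes missed in this comparison. Light alone and probe alone were fitted in the same way, and differences between arms in 1 fit of 48 libraries. Alternatives were DESeq2 1.42.0, limma 3.58.1 (voom with quality weights, and trend on the deposited log2 CPM, whose tables were scaled separately at each time), RLE factors, NCBP1 left out, a mean of at least 100 counts, all 48 or 12 DMSO libraries, a replicate block, and each library left out. Tables and figures were made in Python 3.11.15.

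The comparison and the 44 gene lists were chosen with earlier results of these data known, and lists are described by counts and medians with no set test. Genes named are the 12 highest and 12 lowest log2 fold changes among called genes with a symbol, a mean of at least 100 counts and no overlap between the groups, up to 4 called members of each list with the largest changes (with none called, the 2 most abundant), and NCBP1 and NCBP2. Some genes that this rule names are not reported here. Other members given by their log2 fold change alone were picked after their values were seen. Promoters are from RefSeq, and those on the minus strand are printed in the direction of the gene. Shares of all promoters are over 27305. Over the 10452 promoters of tested genes, TTTGAA stood in 9.68%, CCAAT in 37.4% and TGGGAA in 21.7%. The ER stress element stood in 0.134% of these, the C/EBP-ATF element in 1.61% and the heat shock element in 0.344%. Replicate libraries of a group differed by more than counting error, and p-values measure the spread between these libraries. The authors' scores of unwanted variation and the corrected tables were not used.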

Additional observations from a re-analysis of the deposited data

Results flagged for a closer look

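A value far from the other 3 of its group was looked for in the 2 groups of each of 95 genes given in the text (190 groups), by Dixon's ratio of gap to range at its 95% level, and 8 groups had one, where chance flags about 1 in 20. At 3 h these were GDF15 in replicate 3 (6.23 CPM, the next 2.75), BNIP3 in replicate 1 (43 CPM, the next 38.2) and HEYL in replicate 1 (4.21 CPM, the next 5.56). At 12 h they were INA (92.1 CPM), LGR5 (9.45 CPM) and SMAD6 (28.3 CPM) in replicate 3, each the highest, PINCR in replicate 4 (7.97 CPM) and VLDLR in replicate 1 (16.7 CPM, the next 18.3). These genes were called in every fit that left out 1 library.

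By the interaction test in 48 libraries, the change between 3 and 12 h was called different between arms in 2 genes, and neither was called in the fit of the 16 libraries of the arms compared. For HERPUD1 the change in DMSO minus that with light alone was 0.57, and the call was lost in 7 of the 16 fits that left out 1 library. For HSPA6 the change in DMSO minus that with probe alone was -2.27, at 0.491 to 7.69 CPM in the libraries compared, and the call was lost in 10 of the 16, while DESeq2 gave it no adjusted p.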

How the results depend on the processing

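The count of genes called between 3 and 12 h in DMSO stayed within 1.5 times of 4436 in every alternative run, from 3162 without replicate 2 at 3 h to 5144 without replicate 3 at 12 h, with 6060 by voom and 4897 by DESeq2. Called higher were 1839 to 2782 and lower 1323 to 2362 without any 1 library. On the deposited log2 CPM, 66.6% of calls were higher (2915 of 4379), against 54.6%. The interaction count of 1 against light alone was 3 by DESeq2 and by voom and 0 in the fit of 16 libraries, and 0 to 1 without any 1 library. That of 1 against probe alone was 8 by DESeq2, which gave HSPA6 no adjusted p and called other genes, 2 with the replicate block, 0 in the fit of 16 libraries and 0 to 5 without any 1 library. The calls with light alone ran from 5606 to 6298 and with probe alone from 6384 to 6866 without any 1 library. The cause was not tested. Of 92 called genes that are given with values by library or named by the rule, 90 were called in every alternative, and PRC1 and NOTCH1 were not. Of 36 other called genes in the text, not counting MYC, TNFRSF10B, PGK1, SLC16A1, ENO1 and GPI, 26 were. The exceptions were BMP7, BMPR2, DNAJB6, EIF2AK3, MT-ND4, MT-ND5, NPM1, PCNA, PPP1R15A and TGFBR1, whose calls were lost in 1 to 8 of 18 alternatives. No gene of either set changed sign. The filter on low counts changed nothing, since it removed no gene. Time and preparation batch cannot be told apart in any of these fits.

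With the replicate number as a block, 3687 genes were called in DMSO, 6393 with light alone and 7539 with probe alone, and the DMSO lists had 2 Wnt genes and 0 mitochondrial genes higher and 5 lysosome genes lower. Same-numbered libraries at 3 and 12 h had deviations that correlated at 0.0898, 0.155, -0.386 and 0.226. Each library at 3 h correlated better with another number at 12 h, at up to 0.191, 0.191, 0.583 and 0.232. The numbers were therefore not taken to pair the samples.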
